A study of Mus musculus with 10 samples.

Results

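Receptor activity-modifying proteins (RAMPs) and the receptor they escort were followed through nicotine withdrawal in the mouse medial habenula. The group comprised Ramp1, Ramp2 and Ramp3, the calcitonin receptor-like receptor gene Calcrl, the adrenomedullin gene Adm, and Crcp, which encodes the calcitonin gene-related peptide (CGRP) receptor component protein. These 6 genes were taken by their Ensembl identifiers from the 56691 genes of the deposited matrix. They were picked with the difference between nicotine-withdrawn and control mice in view, so their differences between these groups describe the libraries and do not test an independent hypothesis. Ramp1 is ENSMUSG00000034353 on chromosome 1, Ramp2 is ENSMUSG00000001240 on chromosome 11, and Ramp3 is ENSMUSG00000041046, also on chromosome 11. Calcrl is ENSMUSG00000059588 on chromosome 2, Adm is ENSMUSG00000030790 on chromosome 7, and Crcp is ENSMUSG00000025532 on chromosome 5.

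The withdrawal group held 6 wild-type mice given intraperitoneal nicotine ditartrate at 4 mg/kg, 2 injections a day, for 14 days, with saline in its place from day 15. The control group held 4 wild-type mice injected intraperitoneally with saline throughout. Medial habenula was collected on day 17, and each mouse gave 1 RNA-seq library. Strain, sex and age are not stated in the labels. The labels of the libraries describe cholinergic neurons sorted from the medial habenula, whereas the series record describes brain tissue.

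RAMPs are single-pass membrane proteins that carry Calcrl to the cell surface and set which peptide it binds. With Ramp1 it forms the receptor for CGRP, and with Ramp2 or Ramp3 it forms receptors for adrenomedullin, a vasodilator peptide; both kinds signal mainly through the stimulatory G protein and cyclic AMP. In the brain, Ramp2 and Calcrl are known from blood vessel endothelium, and RAMPs also occur in neurons. Crcp couples the CGRP receptor to its G protein and is also a subunit of RNA polymerase III.

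The 10 libraries held between 15023448 and 22026333 counts. Withdrawal 2 and control 2 stood apart: 11 medial habenula marker genes summed to 32.6 CPM (counts scaled to library size) in withdrawal 2 and 35.6 CPM in control 2, against 1303 to 1975 CPM in the other 8 libraries. Chat, the enzyme that makes acetylcholine and a defining marker of the labelled cells, was at 0.200 CPM in withdrawal 2 and 0.165 CPM in control 2, against 26.6 to 40.7 CPM in the other 8. No library lacked glial genes: the oligodendrocyte gene Mog was at 52.5 to 120 CPM and the astrocyte gene Aqp4 at 203 to 459 CPM over the 10. Results are therefore given over all 10 libraries and over the 8 that remain without that pair (5 withdrawal, 3 control). In RNA from a mixed sample, fewer cells of a type and less RNA per cell cannot be told apart.

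Ramp2, the adrenomedullin receptor partner, was the member whose CPM separated the groups over 10 libraries. It lay between 5.82 and 8.32 CPM in the 6 withdrawal libraries, with a median of 7.50 CPM. In controls it was at 17.4, 25.1, 15.6 and 14.5 CPM in control 1 to control 4. All 6 withdrawal libraries were below the lowest control, and control 2 was the highest of all. Ramp2 averaged 7.34 ± 0.862 CPM in withdrawal (SD, n = 6) and 18.2 ± 4.79 CPM in controls (SD, n = 4), a control level 2.47 times that of withdrawal.

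In the edgeR quasi-likelihood fit over 14928 genes, the log2 fold change of Ramp2 (withdrawal over control) was -1.31 with a standard error of 0.164 and a Benjamini-Hochberg adjusted p of 0.0259. Of the 5 members tested, Ramp2 alone passed the adjusted threshold of 0.05. The share of all tested genes that passed was 0.208%, or 31 genes, and 0.174% passed as lower; nothing is read from the member count because the members were chosen on this contrast. Ramp2 was also the member whose groups did not overlap in CPM over 10 libraries, as was true of 3.31% of tested genes. Over 8 libraries the log2 fold change was -1.15 with a standard error of 0.123 and an edgeR adjusted p of 0.00120, where 14.0% of tested genes passed, 7.63% as lower and 6.36% as higher. The call over 10 libraries was sensitive to single libraries: it held in 3 of the 10 fits that left out 1 library (without withdrawal 2, control 2 or control 4). In the other 7 fits the edgeR adjusted p was between 0.0675 and 0.104, while the log2 fold change over all 10 such fits lay between -1.40 and -1.12.

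**Figure D1:**
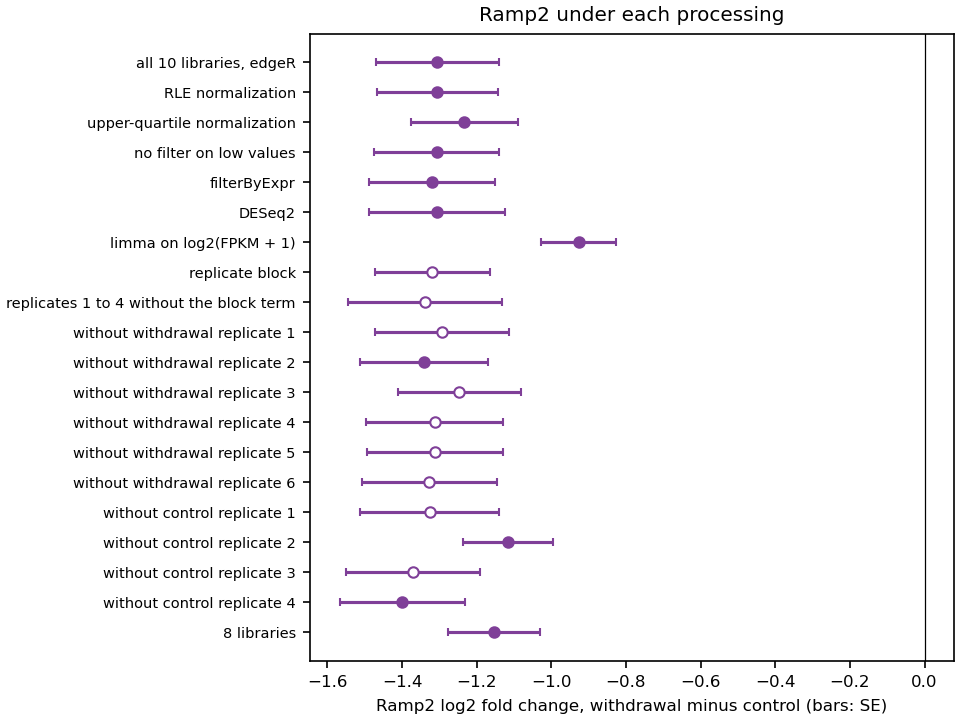
Log2 fold change of Ramp2, withdrawal over control (x axis), under each way of fitting the data (rows); bars are ± SE, filled points had an adjusted p under 0.05 and open points did not. All estimates lie between -1.40 and -0.93, and 7 of the 10 fits that left out 1 library are open.

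**Figure D2:**
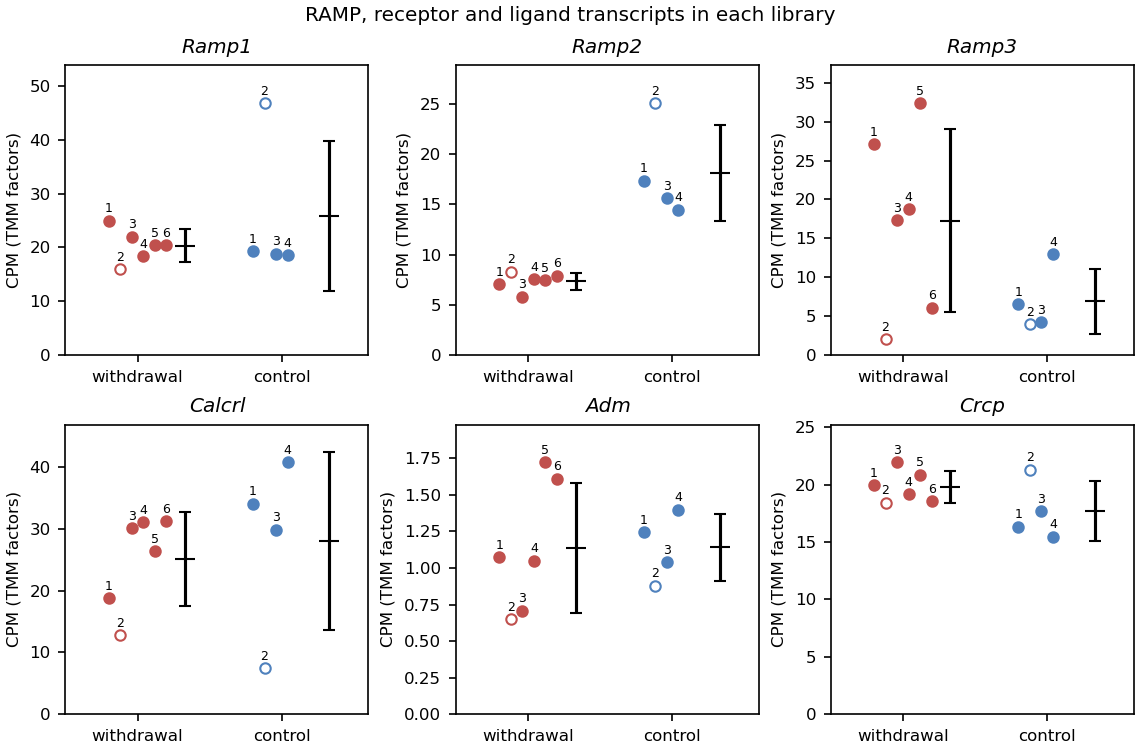
CPM of each of the 6 genes (y axis) in withdrawal and control libraries (x axis), 1 point per library, with the bar and whiskers giving the mean ± SD; open circles are withdrawal 2 and control 2. Ramp2 is at 5.82 to 8.32 CPM in withdrawal and 14.5 to 25.1 CPM in controls, while the other genes overlap between the groups.

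Ramp1, the CGRP receptor partner, overlapped between the groups. It ranged from 15.9 to 24.97 CPM in withdrawal, with a median of 20.4 CPM, and stood at 19.3, 46.9, 18.8 and 18.6 CPM in control 1 to control 4. Control 2 was far above the other 9 libraries, which lay within the withdrawal range. The log2 fold change was -0.35 with a standard error of 0.270 and an edgeR adjusted p of 0.533. Without withdrawal 2 and control 2 its sign turned, to 0.16 with a standard error of 0.0999 and an edgeR adjusted p of 0.308. In control 2, 9 hippocampal and cortical neuron markers summed to 3132 CPM, against 325 to 626 CPM in the withdrawal libraries and 489 to 972 CPM in the other controls.

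Ramp3, the other adrenomedullin receptor partner, varied most from library to library. It ran from 2.004 to 32.4 CPM in withdrawal, with a median of 18.0 CPM, and was at 6.56, 3.96, 4.22 and 12.96 CPM in control 1 to control 4. Of the 6 withdrawal libraries, 4 were above every control, whereas withdrawal 2 was below every control and withdrawal 6, at 6.06 CPM, was among them. The mean was 17.3 ± 11.7 CPM in withdrawal (SD, n = 6) and 6.92 ± 4.19 CPM in controls (SD, n = 4). The log2 fold change of 1.31 was as large as that of Ramp2 in size, but its standard error was 0.688 and its edgeR adjusted p was 0.370. Over 8 libraries it was 1.33 with a standard error of 0.511 and an edgeR adjusted p of 0.110.

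The receptor gene itself, Calcrl, overlapped between the groups. It ranged from 12.8 to 31.2 CPM in withdrawal, with a median of 28.2 CPM, and stood at 34.1, 7.42, 29.9 and 40.8 CPM in control 1 to control 4. The lowest value of each group was in withdrawal 2 and control 2, the pair with few habenula transcripts. The log2 fold change was -0.16 with a standard error of 0.412 and an edgeR adjusted p of 0.868. Over 8 libraries Calcrl averaged 27.5 ± 5.25 CPM in withdrawal (SD, n = 5) and 34.9 ± 5.50 CPM in controls (SD, n = 3), with a log2 fold change of -0.35, a standard error of 0.164 and an edgeR adjusted p of 0.178.

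Adm, the ligand, had the lowest level of the 6 genes. It had 13 to 35 counts per library, equal to 0.65 to 1.72 CPM in withdrawal with a median of 1.06 CPM, and 1.25, 0.879, 1.04 and 1.40 CPM in control 1 to control 4. The groups overlapped, with means of 1.14 ± 0.447 CPM in withdrawal (SD, n = 6) and 1.14 ± 0.228 CPM in controls (SD, n = 4). Its mean of 0.703 FPKM (fragments per unit of gene length, scaled to sequencing depth) was under the minimum of 1 set for testing, so it was not among the 5 members tested. Without that minimum the log2 fold change of Adm was -0.01 with a standard error of 0.332 and an edgeR adjusted p of 0.989, and with the filter of edgeR it was -0.02 with an edgeR adjusted p of 0.983.

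Crcp varied least over the libraries among the 5 tested members. It ranged from 18.4 to 21.96 CPM in withdrawal, with a median of 19.6 CPM, and stood at 16.3, 21.3, 17.7 and 15.5 CPM in control 1 to control 4. In CPM all withdrawal libraries were above 3 of the 4 controls, and control 2 lay within the withdrawal range. The log2 fold change was 0.16 with a standard error of 0.104 and an edgeR adjusted p of 0.450. Without withdrawal 2 and control 2 the groups no longer overlapped in CPM, as in 23.3% of tested genes. The log2 fold change was then 0.28 with a standard error of 0.0854 and an edgeR adjusted p of 0.0587. In the deposited FPKM the groups of Crcp did not overlap over 10 libraries, at 11.45 or more in withdrawal and 11.11 or less in controls. The share of all genes that did so in FPKM was not computed. By limma on FPKM the log2 fold change was 0.23 with a limma adjusted p of 0.244.

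Levels were compared between genes on the FPKM scale, which divides by gene length. In withdrawal the order was Ramp3 and Crcp (12.7 ± 8.55 and 12.7 ± 0.950 FPKM), Ramp1 (6.83 ± 1.07), Calcrl (5.22 ± 1.65), Ramp2 (2.25 ± 0.256) and Adm (0.713 ± 0.283; SD, n = 6 each). In controls the order was Crcp (10.7 ± 0.551 FPKM), Ramp1 (7.94 ± 3.25), Calcrl (5.74 ± 3.15), Ramp2 (5.20 ± 0.812), Ramp3 (4.95 ± 3.26) and Adm (0.688 ± 0.186; SD, n = 4 each). Within controls, the means of Ramp1, Calcrl, Ramp2 and Ramp3 lay within their spread of each other, and Crcp exceeded Ramp1 by less than the spread of Ramp1. That spread came mainly from control 2, with Ramp1 at 12.81 FPKM. In control 1, control 3 and control 4, Ramp1 was at 6.18 to 6.48 FPKM and Crcp at 9.97 to 11.1 FPKM. Library by library, Ramp1 exceeded Ramp2 in every control with the deposited lengths. Within withdrawal, Ramp2 was below Ramp1 by more than the spread of either, Ramp1 and Calcrl differed by less than the spread of Calcrl, and Ramp3 spanned the levels of all the tested members.

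The Ramp2 level per length carries a limit of annotation. The lengths implied by the deposited counts and FPKM equal the union of annotated exons, and 1103 of the 3301 Ramp2 exon bases (33.4%) are shared with the neighbouring gene Vps25 on the same strand. Vps25, a subunit of the endosomal sorting machinery, was at 1.20 to 2.76 CPM, and reads from the shared bases cannot be assigned to 1 gene. With the 2198 unshared bases as its length, Ramp2 would be 3.38 ± 0.384 FPKM in withdrawal (SD, n = 6) and 7.81 ± 1.22 FPKM in controls (SD, n = 4). Ramp3 overlaps the antisense gene Gm11978, which was at 0.148 CPM or less in every library.

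The make-up of the RAMP transcripts was described by the share of each RAMP in their summed FPKM. Whether a RAMP was in the same cells as Calcrl was not measured. Ramp2 made up 7.08, 27.3, 8.14, 10.4, 6.98 and 17.7% of the summed RAMP FPKM in withdrawal 1 to withdrawal 6, and 32.1, 29.3, 33.8 and 22.0% in control 1 to control 4. Withdrawal 2 fell among the controls, and the other 5 withdrawal libraries were below all of them. The mean Ramp2 share was 12.9 ± 8.08% in withdrawal (SD, n = 6) and 29.3 ± 5.20% in controls (SD, n = 4).

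Ramp3 took a mean of 51.0 ± 22.0% in withdrawal and 27.2 ± 15.2% in controls, and Ramp1 took 36.1 ± 14.2% in withdrawal and 43.5 ± 12.1% in controls. Both shares overlapped between the groups. Ramp3 was the most abundant RAMP in withdrawal 1, 3, 4 and 5, at 58.2 to 72.2%, and in control 4, at 47.1%; Ramp1 was the most abundant in the other 5 libraries. The summed RAMP FPKM was 21.8 ± 9.10 in withdrawal (SD, n = 6) and 18.1 ± 3.47 in controls (SD, n = 4). It was 2.11 to 7.79 times the Calcrl FPKM in withdrawal, against 2.29 to 2.39 times in control 1, control 3 and control 4 and 17.0 times in control 2. The order of Ramp1 and Ramp2 in controls depended on the Ramp2 length. With the unshared length, the Ramp2 share would be 17.9 ± 10.3% in withdrawal and 38.3 ± 6.02% in controls, beside a Ramp1 share of 33.6 ± 11.9% in withdrawal and 37.8 ± 10.3% in controls. Ramp2 would then be the most abundant RAMP in control 1 and control 3, at 8.02 and 7.06 FPKM against 6.48 and 6.18 FPKM for Ramp1, and the most abundant RAMP of the other 8 libraries would not change.

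**Figure D3:**
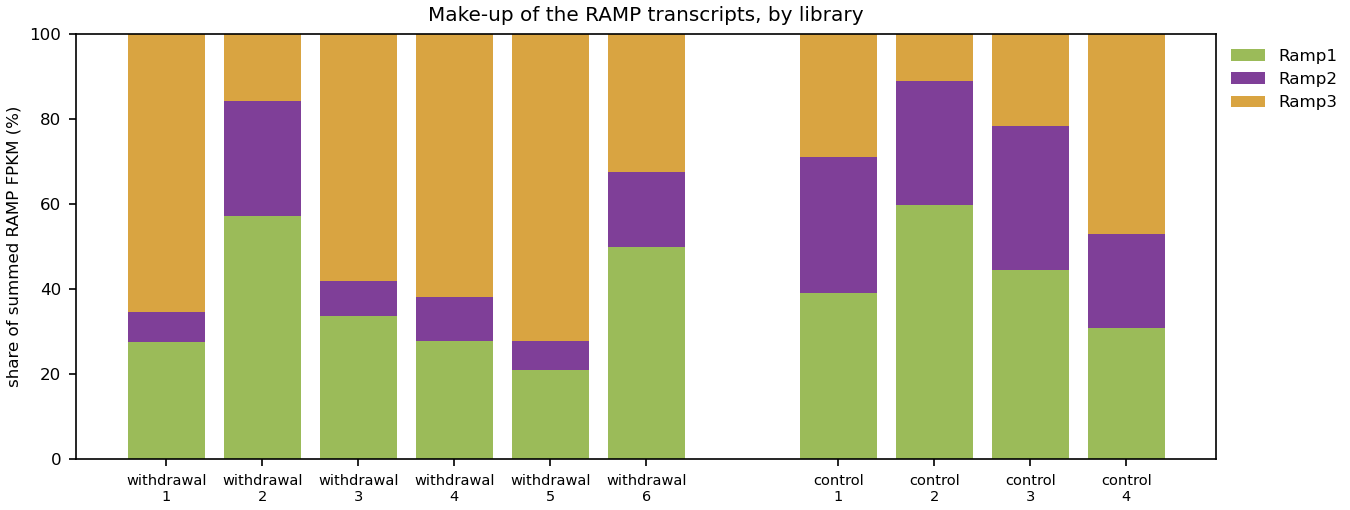
Share of the summed RAMP FPKM (y axis, percent) held by Ramp1, Ramp2 and Ramp3 in each library (x axis). The Ramp2 share is 6.98 to 27.3% in withdrawal and 22.0 to 33.8% in controls, and the Ramp3 share is 58.2 to 72.2% in withdrawal 1, 3, 4 and 5.

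Ramp2 was set against endothelial transcripts, since it is known from these cells. The 16 endothelial markers summed to 280 to 410 CPM in withdrawal and 350 to 399 CPM in controls, and none of the 16 was at 0. None passed the threshold in edgeR over 10 libraries, with 1 at an unadjusted p under 0.05, 1 called by DESeq2 and 0 by limma, tools that called 2.56% and 0.0804% of all genes. Of the 16, 7 had positive and 9 negative log2 fold changes, with a median of -0.03, beside 0.0034 over all tested genes. The lowest was Ly6c1, an endothelial surface antigen, at -0.60 with an edgeR adjusted p of 0.0996, and it passed over 8 libraries at -0.52 with an edgeR adjusted p of 0.0165. The adhesion gene Pecam1 was at 0.08, the cadherin gene Cdh5 at -0.20, the angiopoietin receptor gene Tek at 0.16 and the transcription factor gene Sox17 at -0.21. The highest, named after its value was seen, was the VEGF receptor gene Kdr at 0.24. None of the 16 markers had a log2 fold change as low as the -1.31 of Ramp2. The brain endothelial gene Mfsd2a, outside this list, was close to Ramp2, at -1.19 (edgeR adjusted p of 0.00715). Mfsd2a is named for a profile like that of Ramp2, so its similar fold change is not separate evidence.

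Ramp2 equalled 1.88, 2.03, 2.08, 2.17, 2.13 and 1.98% of the summed endothelial CPM in withdrawal 1 to withdrawal 6, and 4.36, 7.17, 4.40 and 3.76% in control 1 to control 4. The withdrawal libraries lay close together and the groups did not overlap. Ramp2 was picked for its difference between the groups, and the log2 endothelial sum differed by only -0.06 over 10 libraries. The ratio therefore largely repeats the Ramp2 difference and is not separate evidence. The log2 ratio of Ramp2 to endothelial markers was -5.61 ± 0.0755 in withdrawal (SD, n = 6) and -4.39 ± 0.405 in controls (SD, n = 4), a difference of -1.22. Over 8 libraries the difference was -1.03, and with Cldn5 and Cdh5, genes of endothelial junctions, as the only markers it was -1.25. Calcrl equalled 3.13 to 10.8% of the endothelial sum in withdrawal and 2.12 to 10.6% in controls, and the groups overlapped. The log2 ratio of Calcrl to endothelial markers was -3.90 ± 0.648 in withdrawal (SD, n = 6) and -3.98 ± 1.06 in controls (SD, n = 4), a difference of 0.08. Over 8 libraries the difference in this Calcrl ratio was -0.23, and the groups still overlapped. Whether the Ramp2 and Calcrl ratios differed in their change was not tested.

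**Figure D4:**
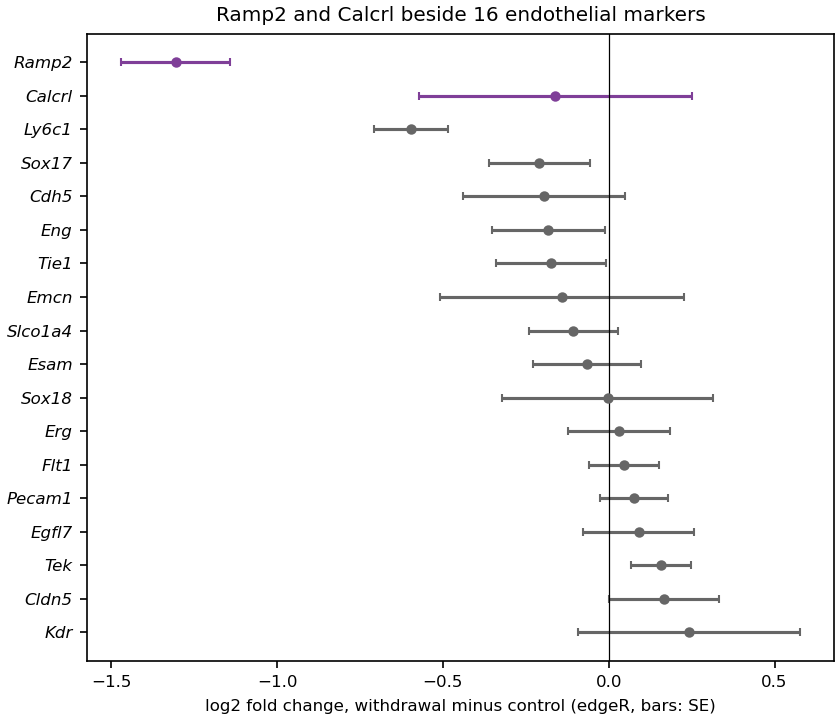
Log2 fold change, withdrawal over control (x axis), of Ramp2 and Calcrl (purple) and of 16 endothelial markers (grey), 1 gene per row, from the edgeR fit over 10 libraries; bars are ± SE. Ramp2 lies at -1.31, below all 16 of these markers, which run from -0.60 to 0.24, and Calcrl lies at -0.16 with a wide bar.

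Markers of some other cell types differed in the same direction as Ramp2. All 10 mural cell markers had negative log2 fold changes, with a median of -0.27, although none passed the threshold in edgeR over 10 libraries, with 3 at an unadjusted p under 0.05, 1 called by DESeq2 and 0 by limma. The lowest were the smooth muscle genes Acta2 at -1.14, Myh11 at -0.96 and Tagln at -0.94, while the pericyte genes Pdgfrb and Rgs5 were at -0.08 and -0.32. The mural sum was 182 to 257 CPM in withdrawal and 246 to 317 CPM in controls; over 8 libraries, at 182 to 234 CPM in withdrawal and 249 to 317 CPM in controls, it no longer overlapped, and 3 of the 10 markers were lower. Over these 8 libraries 7.63% of all tested genes passed as lower, a share to set beside each such count here. The groups of 23.3% of tested genes did not overlap over these 8, a share to set beside each sum that did not overlap. The log2 ratio of Ramp2 to the mural sum differed between withdrawal and controls by -0.997 over 10 libraries and by -0.78 over 8. The groups did not overlap on this scale, which again carries the difference for which Ramp2 was picked. The mural sum weighs its abundant genes most. Rgs5 averaged 91.9 CPM in withdrawal and 115 CPM in controls, against 6.49 and 14.3 CPM for Acta2. Oligodendrocyte markers summed to 5863 to 10008 CPM in withdrawal and 11071 to 12292 CPM in controls over 8 libraries, with 5 of 6 lower, and meningeal fibroblast markers to 103 to 213 CPM in withdrawal and 275 to 330 CPM in controls, with 3 of 7 lower. Over 10 libraries both sums overlapped: the oligodendrocyte sum was 5863 to 14569 CPM in withdrawal and 8618 to 12292 CPM in controls, and the meningeal fibroblast sum was 103 to 293 CPM in withdrawal and 82.1 to 330 CPM in controls. Hippocampal and cortical markers also ran lower over 8 libraries, at 325 to 411 CPM in withdrawal and 489 to 972 CPM in controls, with 4 of the 8 tested passing. Over 10 libraries none of the 8 passed in edgeR (7 at an unadjusted p under 0.05, 2 by DESeq2, 0 by limma). All 8 had negative log2 fold changes over 10 libraries, with a median of -2.07, the lowest median of any list examined. Over 8 libraries their median was -1.78. Neurod6, Neurod2 and Slc17a7 were at -3.83, -2.51 and -1.24 over 10 libraries. The astrocyte sum also did not overlap over 8 libraries, at 1508 to 1714 CPM in withdrawal and 1867 to 1926 CPM in controls. Nor did the lymphatic and meningeal vessel sum, mostly Prox1, at 90.8 to 114 CPM in withdrawal and 125 to 202 CPM in controls. Both of these sums overlapped over 10 libraries. The part of any of these cell types in the Ramp2 difference was not tested.

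Ramp3 was highest in the libraries with the highest sum of thalamic markers. The 8 thalamic neuron markers summed to 1346, 508, 1176, 1075, 1447 and 785 CPM in withdrawal 1 to withdrawal 6, and to 745, 169, 485 and 798 CPM in control 1 to control 4. The 4 withdrawal libraries with the highest thalamic sums were the same 4 in which Ramp3 exceeded every control. The markers did not all follow the sum. Prkcd was highest in withdrawal 2, at 245 CPM, where Gbx2 was at 0.200 CPM and Ramp3 was at its lowest. Slc17a6 held the largest part of the sum, with means of 475 CPM in withdrawal and 242 CPM in controls. It was at 5.33 CPM in control 2. All 8 thalamic markers had positive log2 fold changes, with a median of 0.94, and none passed the threshold in edgeR over 10 libraries (1 at an unadjusted p under 0.05, 0 by DESeq2 and limma). The protein kinase C gene Prkcd was at 0.96, Gbx2 at 1.55, Ntng1 at 1.33, Lef1 at 0.92 and Rora at 0.73. Over 8 libraries 4 of the 8 were higher, beside 6.36% of all tested genes. The part of thalamic cells in the Ramp3 values was not tested.

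Ramp3 equalled 0.394 to 2.24% of the thalamic sum in withdrawal and 0.869 to 2.35% in controls. The log2 ratio of Ramp3 to thalamic markers was -6.34 ± 0.971 in withdrawal (SD, n = 6) and -6.26 ± 0.703 in controls (SD, n = 4), a difference of -0.08, and over 8 libraries the difference was 0.53. The groups overlapped in both cases. Calcrl was lowest in the pair of libraries with few habenula transcripts, and Ramp1 was highest in the library with most hippocampal and cortical transcripts.

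**Figure D5:**
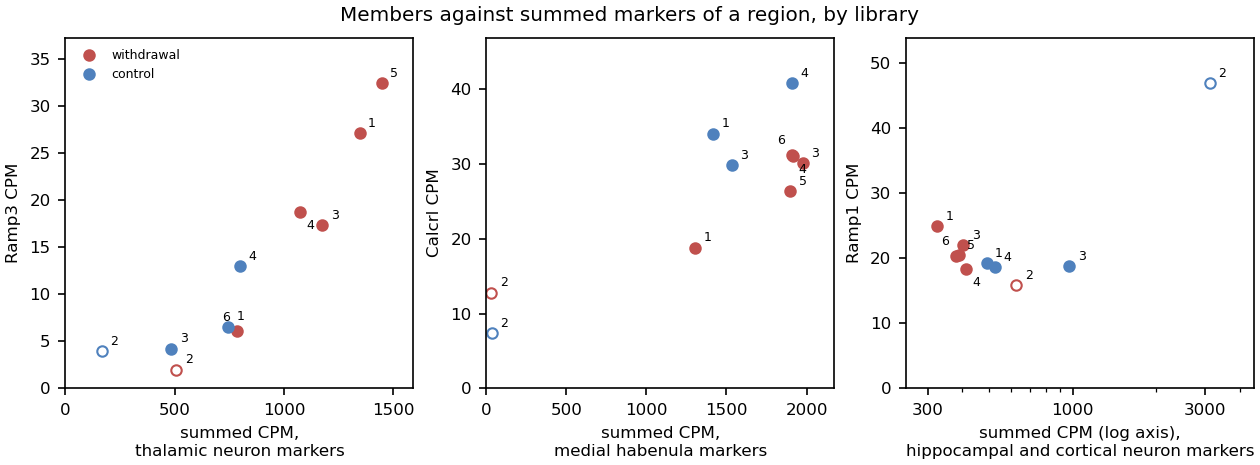
CPM of Ramp3, Calcrl and Ramp1 (y axes) against the summed CPM of thalamic, medial habenula, and hippocampal and cortical neuron markers (x axes; the right one is a log axis), 1 numbered point per library, red for withdrawal and blue for control, with open circles for withdrawal 2 and control 2. Ramp3 is at 17.4 to 32.4 CPM in the 4 libraries whose thalamic sum is 1075 CPM or more, Calcrl is 7.42 to 12.8 CPM where habenula markers are nearly absent, and Ramp1 is 46.9 CPM in control 2.

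The other ligands that use these receptors were scarce. Calca, which encodes CGRP and calcitonin, averaged 0.770 ± 0.567 CPM in withdrawal (SD, n = 6) and 0.225 ± 0.144 CPM in controls (SD, n = 4), from 0 to 33 counts per library. Calcb, the second CGRP gene, had at most 3 counts in any library. Adm2, which encodes intermedin, and Iapp, which encodes amylin, had 0 counts in all 10 libraries; taking 3 counts as the limit that a count of 0 allows, this permits up to 0.136 to 0.200 CPM in a single library and 0.0161 CPM over all 10. This limit covers counting error only. The calcitonin receptor gene Calcr, another RAMP partner, had 1 to 18 counts per library.

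Genes that remove or process the peptides were better measured, and none of the 6 tested in this list passed the threshold in edgeR over 10 libraries (1 at an unadjusted p under 0.05, 0 by DESeq2 and limma). The median of their log2 fold changes was -0.19. The decoy receptor gene Ackr3, which takes up adrenomedullin, was at -0.51 with an edgeR adjusted p of 0.309. Over 8 libraries Ackr3 passed, at -0.59 with an edgeR adjusted p of 0.0403. Pam, which amidates the peptides, was at 0.07, and the peptidase genes Mme, Ide and Ece1 were at 0.14, -0.45 and 0.18, with edgeR adjusted p between 0.366 and 0.914 for these genes. Gpr182, another receptor that takes up adrenomedullin, averaged 3.35 ± 0.973 CPM in withdrawal (SD, n = 6) and 4.36 ± 2.13 CPM in controls (SD, n = 4) and was under the minimum for testing.

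Downstream of the receptor, 13 genes of G protein coupling and cyclic AMP were tested, none passed in edgeR over 10 libraries (5 at an unadjusted p under 0.05, 2 by DESeq2, 0 by limma), and their median log2 fold change was 0.12. Without withdrawal 2, 4 of the 13 passed, as did 5.98% of all tested genes. Gnas, the stimulatory G protein subunit, was at 0.27 (edgeR adjusted p of 0.247) and the receptor kinase gene Grk3 at 0.43 (0.264). The adenylyl cyclase gene Adcy9 was at -1.53 (edgeR adjusted p of 0.258), with 155 CPM in control 2. Over 8 libraries 5 of the 13 were higher and 2 lower, beside 6.36% and 7.63% of all tested genes. Among them Gnas passed at 0.30 (edgeR adjusted p of 0.0119), Grk3 at 0.55 (0.00882) and Adcy9 at -1.01 (0.00714). Of 14 other class B or RAMP-partner receptors, 5 were tested and none passed in edgeR over 10 libraries (2 at an unadjusted p under 0.05, 1 by DESeq2, 0 by limma), with a median of 0.24. Pth1r was at 0.73 (edgeR adjusted p of 0.252), Adcyap1r1 at 0.24 (0.281) and Glp1r at 2.12 (0.369), and Glp1r reached 116 CPM in withdrawal 2. Over 8 libraries Pth1r passed at 0.62 (edgeR adjusted p of 0.0309), while Adcyap1r1 at 0.13 (0.142) and Glp1r at 0.25 (0.770) did not.

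Crcp was set beside 17 other RNA polymerase III subunit genes. None of the 17 passed in edgeR over 10 libraries (1 at an unadjusted p under 0.05, 0 by DESeq2 and limma), 8 had positive and 9 negative log2 fold changes, and the median was -0.04. The 3 with the smallest p were Polr3e at -0.20, Polr3g at -0.26 and Polr3k at 0.13, with edgeR adjusted p of 0.282, 0.350 and 0.443. Over 8 libraries 1 of the 17 passed, Polr3e at -0.26 (edgeR adjusted p of 0.0483), beside 14.0% of all tested genes.

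Adm is known as a hypoxia-inducible gene, and 13 such genes were tested. Ddit4, an inhibitor of growth signalling that is also induced by glucocorticoids, was lower at -1.03 (edgeR adjusted p of 0.0270) and was the only one of the 13 to pass over 10 libraries, where 0.208% of tested genes did. The median over the list was 0.05, with the glucose transporter gene Slc2a1 at -0.41 (edgeR adjusted p of 0.158) and the oxygen sensor gene Egln1 at -0.33 (0.327). Over 8 libraries 4 of the 13 passed, 1 higher and 3 lower, beside 14.0% of all tested genes. Among them were Slc2a1 at -0.46 (edgeR adjusted p of 0.00515) and Egln1 at -0.27 (0.0328). Of 15 glucocorticoid-inducible genes, 9 were lower and none higher, with a median of -1.004. The lowest adjusted p in this list belonged to the metallothionein gene Mt2 at -1.11 (edgeR adjusted p of 0.00461) and the lipid droplet gene Plin4 at -2.91 (0.00461). Like the other lists, this list was chosen with earlier results of these libraries known, so its direction is not independent evidence. The count of 9 moved with single libraries: it was 14 without withdrawal 2 and 14 over 8 libraries, 8 without control 2, 3 without control 1, and 2 without any other single library. Ddit4 lost its call without control 3, without control 4 and without any withdrawal library other than withdrawal 2. Among all 19 lists examined beside the 6 members, the hypoxia and glucocorticoid lists were the 2 with any gene called by edgeR over 10 libraries. The median log2 fold changes of the lists not yet given were 0.27 for the medial habenula, -0.43 for GABAergic neurons, -0.08 for astrocytes, -0.32 for oligodendrocytes and -0.26 for microglia. They were 0.22 for choroid plexus and ependyma, 1.91 for blood cells, -0.46 for meningeal fibroblasts and -0.21 for lymphatic and meningeal vessels. The vessel value rests on 2 tested genes of 4, Pdpn at 0.14 and Prox1 at -0.57. Lyve1 and Flt4 were under the minimum for testing. Over these 9 lists DESeq2 called 1 gene, a blood cell gene, and limma called 0.

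The genes whose profile was most like that of each member were found by the root-mean-square difference of centred log2 CPM over the 10 libraries, among 12778 genes. For Ramp2 they were Mertk, a receptor kinase used in phagocytosis, at 0.171, the brain endothelial lipid transporter Mfsd2a at 0.178 and the clock gene Per2 at 0.196, where the median gene was at 0.689. For Ramp1 they were the chloride transporter gene Slc12a5 at 0.105, the neuroserpin gene Serpini1 at 0.113 and Ssx2ip at 0.119. For Ramp3 they were the adrenergic receptor gene Adra1b at 0.340, Rab37 at 0.384 and Mcf2 at 0.450. These differences were larger than for any other member, but they grow with the variation of the member itself. Ramp3 had a root-mean-square of 1.25 around its own mean, and its median gene was at 1.27. For Crcp these values were 0.155 and 0.262.

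For Calcrl the nearest were Dap at 0.185 and the small heat shock protein gene Hspb6 at 0.202. For Crcp they were Rpl37rt at 0.0527, Tiprl at 0.0595 and Nipsnap1 at 0.0706, and Rpl37rt shares sequence with Rpl37, so its counts are uncertain. These neighbours depended on withdrawal 2 and control 2. Over 8 libraries 1 of the 3 was retained for Ramp2, Ramp3 and Crcp, and none for Ramp1 and Calcrl. For Ramp2 the one retained was Mertk, and the closest gene over 8 libraries was the fibronectin gene Fn1 at 0.0961.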

How the data were processed

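One RNA-seq library was made from each of 10 mice, with the total RNA extracted by TRIzol per the labels' protocols. Per the submitters' processing notes, cutadapt 1.9.1, HISAT2 2.2.1 and HTSeq 0.6.1 were used with the mm39 build; the annotation and the strand setting are not given in the sources used here. The deposited table holds raw counts per gene and, beside them, FPKM values from the authors, whose ratio to the counts implies a single length for each member. Gene symbols and exon lengths came from GENCODE M21, on an earlier build, so no coordinates are given; 52073 of 56691 identifiers had a symbol.

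Counts were scaled to CPM with TMM factors, and withdrawal was compared with control by edgeR 4.0.16 (R 4.3.3) quasi-likelihood tests over the 14928 genes with a mean of at least 1 FPKM. These genes held at least 99.0% of the counts of every library. Adjusted p-values are Benjamini-Hochberg over all tested genes, 2-sided, with a threshold of 0.05; standard errors were derived from the test statistic. No 2 libraries of a group agreed within counting noise. Adm was described without a test. Alternatives were other scalings and filters, DESeq2 1.42.0, limma 3.58.1 on log2(FPKM + 1), a replicate block, each library left out, and withdrawal 2 with control 2 left out. Fits of replicates 1 to 4 without the block, left-out libraries for shares and ratios, and the unshared Ramp2 length were added after seeing the data. The edgeR step was checked on simulated counts.

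The members and the 19 gene lists were chosen with earlier results of these data known. The text names all members, every gene of the peptide and receptor list, up to 3 genes with the smallest p in each other list, the first 2 markers of a cell type, and the 3 genes closest in profile to each member; some items these rules would name are not reported here. Any other gene is named as partner, defining marker or extreme of its list, after its values were seen.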

Additional observations from a re-analysis of the deposited data

Results flagged for a closer look

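Of 34 groups of 4 or 6 values examined for a single library far from the rest, 4 held one; chance alone gives such a value in about 1 in 20 groups. Ramp1 was at 46.9 CPM in control 2, against 18.6 to 19.3 CPM in the other 3 controls. The log2 ratio of Calcrl to endothelial markers was -5.56 in control 2, against -3.57 to -3.24 in the other controls. Withdrawal 2 had the lowest sum of medial habenula markers, 32.6 CPM, while the 5 remaining withdrawal libraries had 1303 to 1975 CPM. It also had the highest sum of hippocampal and cortical markers in its group, 626 CPM, while the remaining 5 had 325 to 411 CPM.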

How the results depend on the processing

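Ramp2 kept a negative log2 fold change, between -1.40 and -0.93, under all 19 alternatives and passed the threshold in 10 of them. Whether the replicate numbers pair the libraries was left undecided. The correlation of same-numbered deviations was 0.029, 0.31, -0.13 and 0.28 for replicates 1 to 4. The highest correlation with a library of another number was 0.027, -0.022, 0.036 and 0.23. With the replicate block over replicates 1 to 4, Ramp2 was at -1.32 with an edgeR adjusted p of 0.217, and for the same 8 libraries without the block term at -1.34 with 0.263; neither fit called a member or any gene (0 higher, 0 lower), with 1910 and 1120 genes at an unadjusted p under 0.05. Leaving out 1 library moved Ramp2 between -1.40 and -1.12, the members called between 0 and 1, the genes called higher between 0 and 340 and those called lower between 4 and 553, against 5 and 26 in all 10 libraries; both maxima came without withdrawal 2. Higher and lower counts were 3 and 17 with upper-quartile scaling, 2 and 19 with no filter, 151 and 229 by DESeq2, 1 and 11 by limma, and 949 and 1139 over 8 libraries. Ramp1 turned positive without control 2 (0.098) and over 8 libraries (0.16), and its values without 1 library ran from -0.48 to 0.098. Calcrl turned positive by limma (0.021) and without control 4 (0.078), with values from -0.49 to 0.078. The cause was not tested. Ramp3 and Crcp were positive under the 19 alternatives, neither past the threshold. Adm had only 13 to 35 counts per library.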
